A study of Mus musculus with 4 samples.

Results

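GABA, the main inhibitory transmitter of the brain, passes through a short chain of proteins between its synthesis and its removal, and the genes followed here code for that chain: Gad1 and Gad2, Slc32a1, Slc6a11 and Abat. They were chosen by name, 5 of the 32285 genes counted, and were measured in every cell type and every neuronal cluster of the nuclei that passed the authors' quality filter. The tissue was a piece of mouse hindbrain that held the area postrema and the nucleus tractus solitarii, and the assay was single-nucleus RNA sequencing, which counts unique molecular identifiers (UMIs), each standing for 1 captured transcript, near the 3′ end of RNA from isolated nuclei. All mice, 12 to 20 weeks old and of both sexes, were given clozapine-N-oxide (CNO, the ligand of designed receptors) at 3 mg per kg into the peritoneum and were killed 1 h later without food. The AgRP-Gq;POMC-Gi mice (AgRP-IRES-Cre+/-;hM3DGqfl/-;POMC-Dre+/-;hM4DGifl/-) carry an activating receptor switched on by Cre from the Agrp gene and a silencing receptor switched on by Dre from the Pomc gene. The controls are labelled WT; the study's methods give them both receptor alleles without either recombinase (AgRP-IRES-Cre-/-;hM3DGqfl/-;POMC-Dre-/-;hM4DGifl/-), while the series' design calls them wildtype. Agrp and Pomc are best known from the arcuate nucleus of the hypothalamus, and Pomc is also used by some neurons of the nucleus tractus solitarii; whether the silencing receptor was present in the hindbrain tissue was not measured here. Each group has 2 libraries, tissue of a group's 2 mice was pooled, and which mouse or mice each library holds is not given in the sources used here, so the spread between libraries may be partly technical.

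Neurons make GABA from glutamate by removing a carboxyl group. The enzymes that do this, glutamate decarboxylases, come from Gad1, whose product supplies GABA throughout the cell, and Gad2, whose product sits largely at nerve terminals. The carrier of Slc32a1 (VGAT) then loads GABA, and also glycine, into synaptic vesicles. After release, plasma membrane carriers take GABA up again, among them that of Slc6a11 (GAT-3), which works mainly in astrocytes. The transaminase of Abat, a mitochondrial enzyme, begins its breakdown. In the lower brainstem many inhibitory neurons release glycine as well, which they take up through the carrier of Slc6a5 (GlyT2), whereas excitatory neurons of the region load glutamate through the carrier of Slc17a6 (VGLUT2).

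Of 44303 barcodes, 39461 nuclei were kept by the authors, 9723 to 10051 per library, with 48904976 to 53089402 UMIs per library and medians of 3211 to 3502 UMIs per nucleus. They fall into 14 annotated cell types and 184 clusters, of which 134 clusters with 12539 nuclei are neurons; 336 kept nuclei (0.851%) share their barcode sequence with a nucleus of another library. Neurons made up 25.4% and 27.2% of kept nuclei in controls and 38.0% and 36.5% in AgRP-Gq;POMC-Gi samples. The labelled types carried their markers: Rbfox3 was found in 75.5% of neurons and 3.22% of astrocytes, Slc4a4 in 98.4% of astrocytes, and Pdgfra in 92.1% of oligodendrocyte precursor cells (OPC). Levels are given as CPM, the UMIs of a gene per 1000000 UMIs of the same cell type or cluster in the same library, with the mean ± SD of the 4 libraries. UMIs near the 3′ end are not corrected for how well each transcript is captured, so levels were compared between cells for a given gene and not between genes. The library AgRP-Gq;POMC-Gi replicate 2 stood apart in Xist, the RNA of the inactive X chromosome, at 16.2 CPM in neurons against 319 to 541 CPM in the other libraries. With 541 CPM in replicate 1 of that group, its libraries did not hold the same mix of mice. Any part of the sex of the mice in the comparisons was not tested.

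The genes lie on GRCm38 (annotation GENCODE M21, all on the + strand) at chromosome 2, 70553072 to 70602014 for Gad1, chromosome 2, 22622205 to 22693874 for Gad2, chromosome 2, 158610767 to 158615748 for Slc32a1, chromosome 6, 114131241 to 114249952 for Slc6a11, and chromosome 16, 8513429 to 8621568 for Abat. Promoters are shown for Gad1, Gad2 and Slc32a1, whose levels go together across neuronal clusters, and for Slc6a11, which is highest in astrocytes. Each run covers 250 bases before to 50 bases after the start site that RefSeq gives (GRCm38.p6, + strand), which need not be the first base of the GENCODE gene. Capitals mark CAGGTG, a form of the E-box that basic helix-loop-helix factors bind, and GGGCGG, the GC box, each on either strand.
Gad1, chr2:70561879-70562178: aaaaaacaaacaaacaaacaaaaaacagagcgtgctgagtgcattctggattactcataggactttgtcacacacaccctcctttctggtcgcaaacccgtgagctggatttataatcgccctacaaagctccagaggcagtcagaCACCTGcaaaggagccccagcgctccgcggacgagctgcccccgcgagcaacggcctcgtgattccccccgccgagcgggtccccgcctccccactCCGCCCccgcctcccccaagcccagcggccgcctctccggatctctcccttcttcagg
Gad2, chr2:22622077-22622376: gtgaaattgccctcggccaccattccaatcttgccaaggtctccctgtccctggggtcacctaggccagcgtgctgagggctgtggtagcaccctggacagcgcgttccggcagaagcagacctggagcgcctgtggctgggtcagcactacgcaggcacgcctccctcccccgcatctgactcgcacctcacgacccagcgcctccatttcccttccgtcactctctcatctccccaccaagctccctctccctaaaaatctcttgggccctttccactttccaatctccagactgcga
Slc32a1, chr2:158610508-158610807: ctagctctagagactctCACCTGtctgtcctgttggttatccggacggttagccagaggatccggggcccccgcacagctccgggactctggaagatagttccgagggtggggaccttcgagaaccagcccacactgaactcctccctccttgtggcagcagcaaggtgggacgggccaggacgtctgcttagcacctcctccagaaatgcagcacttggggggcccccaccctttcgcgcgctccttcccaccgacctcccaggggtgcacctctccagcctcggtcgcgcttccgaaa
Slc6a11, chr6:114130991-114131290: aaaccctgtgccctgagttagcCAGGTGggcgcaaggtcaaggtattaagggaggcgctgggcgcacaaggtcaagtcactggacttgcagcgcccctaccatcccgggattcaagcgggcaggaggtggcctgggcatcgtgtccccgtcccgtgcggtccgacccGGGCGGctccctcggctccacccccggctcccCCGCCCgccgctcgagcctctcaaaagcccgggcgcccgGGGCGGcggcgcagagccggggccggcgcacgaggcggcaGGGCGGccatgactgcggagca
CAGGTG occurred once in Gad1, Slc32a1 and Slc6a11 and not in the Gad2 window, and 20.2% of 32851 mouse promoters of this length hold it. GGGCGG occurred once in Gad1 and 4 times in Slc6a11, and 35.7% of promoters hold it. The GC content of the windows was 60% for Gad1, 61.3% for Gad2, 63.3% for Slc32a1 and 72.3% for Slc6a11, above the median of 52.7% over all promoters. The counting of reads by strand is not described in the sources used here, and Gad1 overlaps the antisense gene Gad1os over 10286 bases, so part of the Gad1 level could belong to that gene.

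**Figure D1:**
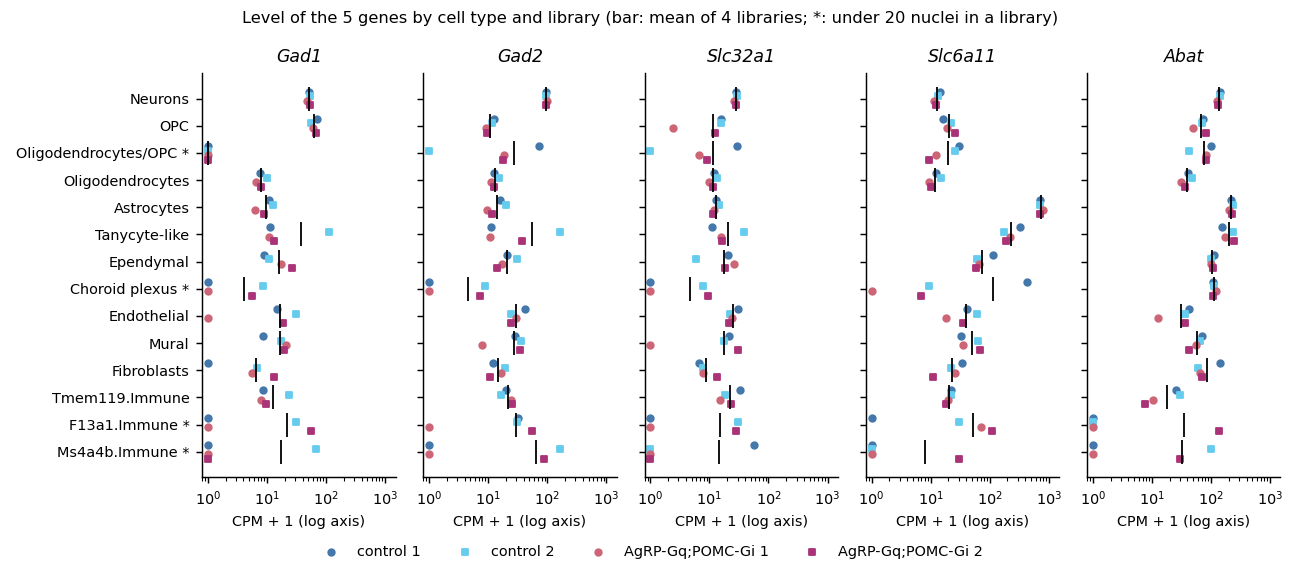
Level of each gene (CPM + 1, log axis) in 14 cell types, with 1 point per library and a bar at the mean of 4 libraries; an asterisk marks types with under 20 nuclei in a library. Gad2 and Slc32a1 are highest in neurons, and Gad1 is as high in OPC as in all neurons pooled. Slc6a11 is highest in astrocytes, and Abat is spread over astrocytes, tanycyte-like cells and neurons.

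Among cell types, the decarboxylase and vesicle genes were highest in neurons, with the exception of Gad1, and the uptake and breakdown genes were highest in astrocytes. Of 12988 Gad2 UMIs, 92.0% came from neurons, as did 88.7% of 7117 Gad1 UMIs, 79.1% of 4281 Slc32a1 UMIs and 72.2% of 23312 Abat UMIs, whereas 82.2% of 14062 Slc6a11 UMIs came from astrocytes. The types were themselves annotated from expression, so these levels are a description and were not tested.

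Gad2 stood at 92.9 and 95.7 CPM in neurons of controls and at 97.6 and 95.3 CPM in those of the AgRP-Gq;POMC-Gi samples (95.4 ± 1.95 CPM). The 4 libraries lay close together, and 38.6% of neurons (exact 95% Clopper-Pearson interval 37.7 to 39.4%, counting error only) had a Gad2 UMI at a median depth of 8704 UMIs. Oligodendrocytes, which are not known to make GABA, had 11.8 ± 1.78 CPM and a Gad2 UMI in 3.03% of nuclei at a median of 2460 UMIs. Their level is used here as a reference for background, though the background of the deeper neurons may differ. Slc32a1 showed the same order, with 27.3 and 28.1 CPM in neurons of the controls, 25.6 and 27.5 CPM in neurons of the AgRP-Gq;POMC-Gi samples, and 10.7 ± 1.53 CPM in oligodendrocytes. A Slc32a1 UMI was found in 20.0% of neurons and 2.82% of oligodendrocytes. For this low gene the next types overlapped with neurons: endothelial nuclei had 20.4 to 30.0 CPM, from only 31 UMIs in all.

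Gad1 departed from its partner in OPC, the dividing precursors of oligodendrocytes. Its level there was 68.2 and 53.7 CPM in controls and 59.2 and 67.2 CPM in AgRP-Gq;POMC-Gi samples (62.1 ± 6.90 CPM), against 50.3, 53.6, 46.2 and 52.4 CPM in neurons in the same order (50.6 ± 3.26 CPM). In each of the 4 libraries OPC were above neurons, though the lowest OPC library and the highest neuron library were level. The neuron level pools all neurons, including those with little Gad1. In GABAergic neurons (classed below) Gad1 was 94.9 to 111 CPM by library, above every OPC library. In glutamatergic neurons it was 4.73 to 7.39 CPM. Gad2 in OPC was 9.69 ± 1.45 CPM, no higher than in oligodendrocytes, and Slc32a1 was 10.5 ± 6.29 CPM. Gad1 UMIs were found in 162 of 784 OPC (20.7%) at a median of 3728 UMIs, and in 1.86% of 16816 oligodendrocytes at a median of 2460 UMIs. When every nucleus was thinned to 800 UMIs the shares were 5.23% in OPC, 4.08% in neurons and 0.636% in oligodendrocytes.

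The share of Gad1 among Gad1 and Gad2 UMIs was higher in OPC than in any other type, where it reached at most 46.8% (choroid plexus). It was 86.5% in OPC (exact 95% interval 81.4 to 90.7%, 199 Gad1 and 31 Gad2 UMIs), 34.6% in neurons (33.9 to 35.3%), 37.2% in oligodendrocytes (34.0 to 40.6%) and 39.8% in astrocytes (34.7 to 45.1%). The oligodendrocyte and astrocyte values lay within a few points of that of neurons. Slc32a1 did not keep the neuronal proportion, with 0.570 UMIs per Gad1 or Gad2 UMI in oligodendrocytes and 0.527 in astrocytes against 0.185 in neurons. Astrocyte clusters were not alike, since Gad1 was 44.9 ± 5.30 CPM in cluster 52 (152 nuclei) and at most 15.5 CPM in the others. The part of free RNA in these levels was not tested. OPC with and without a Gad1 UMI carried the OPC marker Pdgfra alike (93.8% and 91.6% of nuclei), and the neuronal marker Rbfox3 was rare in both (2.47% and 3.70%). Gad2 was higher in OPC with Gad1 than in OPC without it (16.7 and 7.53 CPM, 6.17% and 2.89% of nuclei). So was Slc32a1 (15.4 and 9.21 CPM, 6.17% and 3.05%), and for both genes the exact 95% intervals of the shares overlapped. The part of RNA from GABAergic neurons in this was not tested. The summed level of the 4 neuronal markers was 978 CPM in OPC with Gad1 and 1006 CPM in OPC without it, against 12188 CPM in neurons with Gad1. By library this sum was 930 to 1091 CPM in OPC and 217 to 302 CPM in oligodendrocytes. Of the 4, Meg3 was found in 82.8% of OPC and 23.7% of oligodendrocytes, Snap25 in 61.7% and 20.3%, Syt1 in 15.4% and 6.05%, and Rbfox3 in 3.44% and 2.02%. Their part in the Gad1 level was not tested. OPC with a Gad1 UMI were deeper (median 4687 against 3524 UMIs), and a UMI is more often seen in a deeper nucleus.

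**Figure D2:**
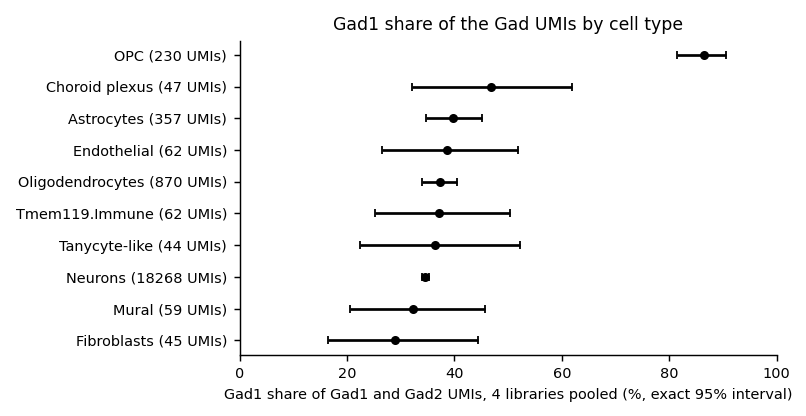
Share of Gad1 among the Gad1 and Gad2 UMIs of each cell type (4 libraries pooled, percent), with the number of UMIs in brackets and the exact 95% interval as bars. OPC lie at 86.5%, and the neurons, oligodendrocytes and astrocytes lie between 34.6% and 39.8%.

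Slc6a11, the astrocytic GABA carrier, reached 714 and 697 CPM in astrocytes of controls and 802 and 709 CPM in those of the AgRP-Gq;POMC-Gi samples (730 ± 48.4 CPM), and 83.0% of 4378 astrocytes had a UMI. Tanycyte-like cells, which line the ventricle wall, followed at 228 ± 69.5 CPM and did not overlap with astrocytes, and ependymal cells had 73.8 ± 26.5 CPM. The choroid plexus mean of 112 ± 214 CPM came from control replicate 1, which has 2 such nuclei, and the other libraries had 0 to 8.23 CPM. In neurons the level was 11.8 ± 1.27 CPM, which overlapped with that of oligodendrocytes (10.8 ± 2.53 CPM). A Slc6a11 UMI was found in 10.0% of neurons and 2.92% of oligodendrocytes at full depth, and in 1.14% and 1.08% at 800 UMIs. Equal CPM does not settle whether neurons are at background, since glutamatergic neurons (classed below) had less Slc32a1 than oligodendrocytes (4.87 against 10.7 CPM). Among the 11 astrocyte clusters the level ran from 296 ± 55.7 CPM (cluster 48) to 1081 ± 64.1 CPM (cluster 20), and the ranges of these did not overlap. Abat varied less among the same clusters, from 144 ± 58.7 CPM in cluster 48 to 239 ± 41.5 CPM in cluster 36.

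Abat, the GABA transaminase gene, was the least restricted. Astrocytes had 218, 237, 198 and 227 CPM (220 ± 16.3 CPM, 48.9% of nuclei) in control replicates 1 and 2 and AgRP-Gq;POMC-Gi replicates 1 and 2, and tanycyte-like cells overlapped with them at 204 ± 46.4 CPM. Neurons had 139, 142, 127 and 132 CPM in the same order (135 ± 6.39 CPM, 60.9% of nuclei), below both of these in range. Microglia (labelled Tmem119.Immune) had 17.4 ± 10.99 CPM and oligodendrocytes 38.1 ± 7.04 CPM, so that the level in neurons was several times that of the lowest types.

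The other genes described for GABA uptake, breakdown and precursor supply were mainly highest outside neurons. Of the genes for carriers and catabolism, Aldh5a1, which codes for the dehydrogenase acting after Abat, was highest in astrocytes (42.1 ± 2.67 CPM against 30.2 ± 1.68 CPM in neurons). Slc6a13 (753 ± 261 CPM) and Slc6a12 (97.7 ± 29.4 CPM), carriers of GABA and related amino acids, were highest in fibroblasts and below 1 CPM in neurons. Maob, a monoamine oxidase (295 ± 65.4 CPM), and Aldh9a1, an aldehyde dehydrogenase (39.04 ± 47.4 CPM), were highest in the choroid plexus, which has only 2 nuclei in its smallest library. Of the precursor genes, Gls2, a glutaminase that makes glutamate from glutamine, was highest in neurons (50.2 ± 4.20 CPM). Glul (glutamine synthetase, 489 ± 57.3 CPM, and 487 CPM in oligodendrocytes), Glud1 (glutamate dehydrogenase, 635 ± 72.7 CPM), Slc1a2 (glutamate uptake, 3106 ± 225 CPM) and Slc38a3 (glutamine transport, 143 ± 9.69 CPM) were highest in astrocytes. Others were highest in tanycyte-like cells (Slc1a3, glutamate uptake, 1122 CPM), ependymal cells (Slc38a1, glutamine transport, 637 CPM), fibroblasts (Slc38a2, amino acid transport, 1551 CPM, and Pdxk, a kinase of the vitamin that both decarboxylases need, 98.1 CPM) and endothelium (Slc38a5, glutamine transport, 68.3 CPM, and Slc1a1, glutamate uptake, 361 CPM).

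To follow the genes among neurons, clusters were classed by the mean CPM of Slc32a1 and Slc17a6: 46 clusters with 4933 nuclei had a Slc32a1 value at least 4 times that of Slc17a6 and are called GABAergic, 69 clusters with 6201 nuclei had a Slc17a6 value at least 4 times that of Slc32a1 and are called glutamatergic, 7 clusters with 830 nuclei lay between (mixed), and 12 clusters with 575 nuclei had fewer than 20 UMIs of each and were not called. The level of Slc32a1 is therefore fixed by the classes and is no finding; it was 53.3 ± 4.08 CPM in GABAergic and 4.87 ± 0.582 CPM in glutamatergic nuclei. Gad1 stood at 99.9, 111, 94.9 and 108.6 CPM in GABAergic nuclei of control replicates 1 and 2 and AgRP-Gq;POMC-Gi replicates 1 and 2, and at 7.39, 6.34, 4.73 and 5.12 CPM in glutamatergic nuclei. Gad2 stood at 175, 186, 190 and 182 CPM in GABAergic and at 17.8, 19.6, 15.9 and 19.5 CPM in glutamatergic nuclei. The classes were far apart in all 4 libraries. Slc6a5, the glycine carrier gene, followed the same line (167 ± 7.49 against 8.80 ± 1.83 CPM) and was found in 64.4% of GABAergic nuclei. Since the carrier of Slc32a1 also loads glycine, the class called GABAergic may hold neurons that release mainly glycine, which was not tested. Abat was higher in GABAergic nuclei (168 ± 8.90 CPM) than in glutamatergic nuclei (112 ± 6.23 CPM) in each library. So was Slc6a11 (13.4 ± 1.54 and 10.1 ± 1.27 CPM), at levels near the 10.8 ± 2.53 CPM of oligodendrocytes.

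Cluster by cluster, Gad1 separated the classes and Gad2 did so less cleanly. All 46 GABAergic clusters were above the highest glutamatergic cluster in Gad1 (median 106 against 3.94 CPM), and 39 of 46 were in Gad2 (median 191 against 11.6 CPM). That highest cluster was 135 for both genes, with 62 nuclei, and its Gad2 level ran from 0 to 299 CPM over the libraries (103 ± 134 CPM). When a library was left out, fewer clusters met the class rule, 41, 37, 38 and 39 without control replicates 1 and 2 and AgRP-Gq;POMC-Gi replicates 1 and 2, of which 41, 36, 36 and 37 were above in Gad1 and 32, 30, 27 and 35 in Gad2. Slc6a5 was above in 43 of 46 (median 150 against 5.00 CPM) and Abat in 2 of 46 (median 156 against 111 CPM). Of 17 transcription factors of inhibitory lineages, Pax8 came closest, with 39 of 46 GABAergic clusters above the highest glutamatergic cluster, followed by Gbx1 with 14 and Pax2 with 11. En1 had 4 such clusters, and Gata2, Gata3 and Tal1 had 3 each. Others went the other way: for Sox14, Lhx5, Lbx1, Otp and Foxd3 a glutamatergic cluster was above every GABAergic cluster (Sox14, 65.7 against at most 7.09 CPM). Ptf1a, which is active in precursors, had no UMI in either class.

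**Figure D3:**
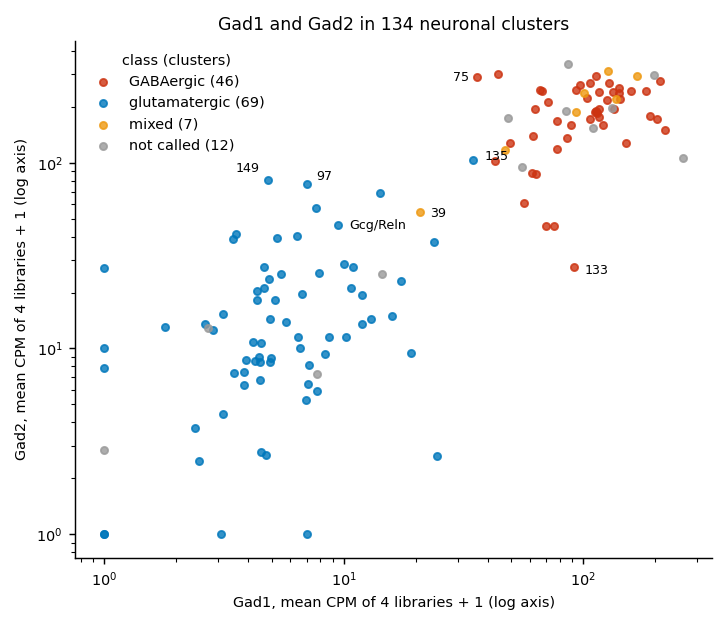
Mean level of Gad1 and Gad2 over 4 libraries (CPM + 1, log axes) in 134 neuronal clusters, coloured by class, with the clusters that the text turns on marked by number or, for Gcg/Reln, by label. GABAergic clusters lie to the right of all glutamatergic clusters in Gad1, while several glutamatergic clusters reach into the GABAergic range in Gad2.

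Levels differed widely within the GABAergic class. Clusters are given by the authors' number and, for most, the pair of marker genes in the authors' label. Gad1 was highest in cluster 125 (Otof/Stac, 220 ± 67.5 CPM) and cluster 56 (Kcnmb2/Sema3a, 209 ± 36.4 CPM) and lowest in clusters 75 (Qrfprl/Baiap3, 35.0 ± 13.97 CPM), 33 (Il1rapl2/Slc6a5, 41.7 ± 12.9 CPM) and 86 (Tfap2b/Col25a1, 43.2 ± 34.0 CPM). Over all neurons cluster 179 (Vmn1r207-ps/Pde11a) had a higher mean, 262 CPM, but it was not called, has 33 nuclei in only the 2 control libraries and rests on 7 UMIs. Gad2 was highest in the uncalled cluster 176 (Dkk2/Col25a1, 339 ± 71.9 CPM), the mixed cluster 92 (312 ± 57.7 CPM) and GABAergic cluster 86 (302 ± 34.4 CPM), so cluster 86 is near the top for Gad2 and near the bottom for Gad1. Its Gad2 level was 286 and 322 CPM in controls and 261 and 337 CPM in AgRP-Gq;POMC-Gi samples. Gad2 was lowest in GABAergic clusters 133 (Nxph2/Nox4, 26.5 ± 17.4 CPM), 74 (Rbm20/Nox4, 44.7 ± 13.5 CPM) and 81 (Gbx1/Fgf10, 44.8 ± 17.2 CPM). Cluster 133 had 45.6 and 14.3 CPM in controls and 9.49 and 36.8 CPM in AgRP-Gq;POMC-Gi samples, all far below the class median. Slc32a1, which set the class, was 71.0 ± 30.7 CPM (133), 64.8 ± 14.8 CPM (74) and 51.1 ± 14.4 CPM (81) in these clusters.

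Slc32a1 itself spread less, with the lowest means in clusters 89 (Necab1/Arhgap15, 36.4 ± 11.6 CPM), 96 (Npsr1/Igf1, 40.3 ± 7.28 CPM) and 64 (Ebf3/Pax2, 41.7 ± 9.19 CPM) and the highest in clusters 171 (Otof/Gbx1, 99.2 ± 34.4 CPM), 162 (Chrdl1/Kcnh8, 71.8 ± 19.1 CPM) and 133. Cluster 171, with 42 nuclei, was also highest in Slc6a11 among neuronal clusters. Its level was 66.8 and 47.9 CPM in controls and 61.2 and 64.2 CPM in AgRP-Gq;POMC-Gi samples (60.0 ± 8.38 CPM), all above the 13.99 CPM of the highest oligodendrocyte library. The smallest library of this cluster has 4 nuclei, where very few UMIs are enough for such a value, so its rank is uncertain. Clusters 184 (Calcr/Shox2, 52.4 ± 92.5 CPM, with 0 UMIs in 2 libraries) and 86 (42.8 ± 18.3 CPM) followed for Slc6a11. Clusters 165 (Hcrtr2/L3mbtl4), 133 and 81 had the lowest Slc6a11 levels among GABAergic clusters, 1.23, 1.63 and 2.36 CPM, resting on 1, 1 and 3 UMIs. Abat was highest in the 2-library cluster 179 (348 CPM, 15 UMIs), in cluster 31 (Cdh3/Nkain3, 305 ± 28.9 CPM) and in cluster 133 (249 ± 21.4 CPM). It was lowest among GABAergic clusters in 75 (85.6 ± 4.32 CPM), 101 (Kcnmb2/Ebf3, 94.9 ± 18.2 CPM) and 144 (Nox4/Kcnmb2, 108 ± 38.0 CPM).

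The balance of the decarboxylase genes thus varied among GABAergic clusters. The number of Gad2 UMIs per Gad1 UMI, compared only between clusters since the genes may be captured unequally, was 1.77 over all GABAergic clusters pooled and had a median of 1.66. It ran from 0.351 in cluster 133 (exact 95% interval 0.200 to 0.593, 57 Gad1 and 20 Gad2 UMIs) to 8.29 in cluster 75 (5.91 to 11.9, 38 Gad1 and 315 Gad2 UMIs), a 23.6-fold range. The intervals lay wholly above the pooled ratio in 13 clusters and wholly below it in 8, and spanned it in 25. By library, the ratio in cluster 133 was 0.583 and 0.167 in the controls and 0.0909 and 0.393 in AgRP-Gq;POMC-Gi samples. In cluster 75 it was 5.67 and 12.2 in the controls and 12.0 and 6.53 in AgRP-Gq;POMC-Gi samples. The libraries of these clusters did not come near each other. Gad2 in cluster 133 was no higher than in the highest oligodendrocyte library (14.32 CPM) in 2 libraries, at 9.49 and 14.30 CPM. It was the only GABAergic cluster where this was so, and its ratio and the range rest on that level. After cluster 133, the lowest ratios were 0.616 in cluster 81 and 0.675 in cluster 74. Below cluster 75, the highest were 7.12 in cluster 86 and 3.82 in cluster 126. In cluster 86 the ratio was 6.88 and 11.5 in the controls and 21.3 and 3.71 in AgRP-Gq;POMC-Gi samples, and without AgRP-Gq;POMC-Gi replicate 2 it was 11.0, above the 10.1 of cluster 75 without that library. In cluster 126 the library values ran from 1.27 to 15 on as few as 1 Gad1 UMI.

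**Figure D4:**
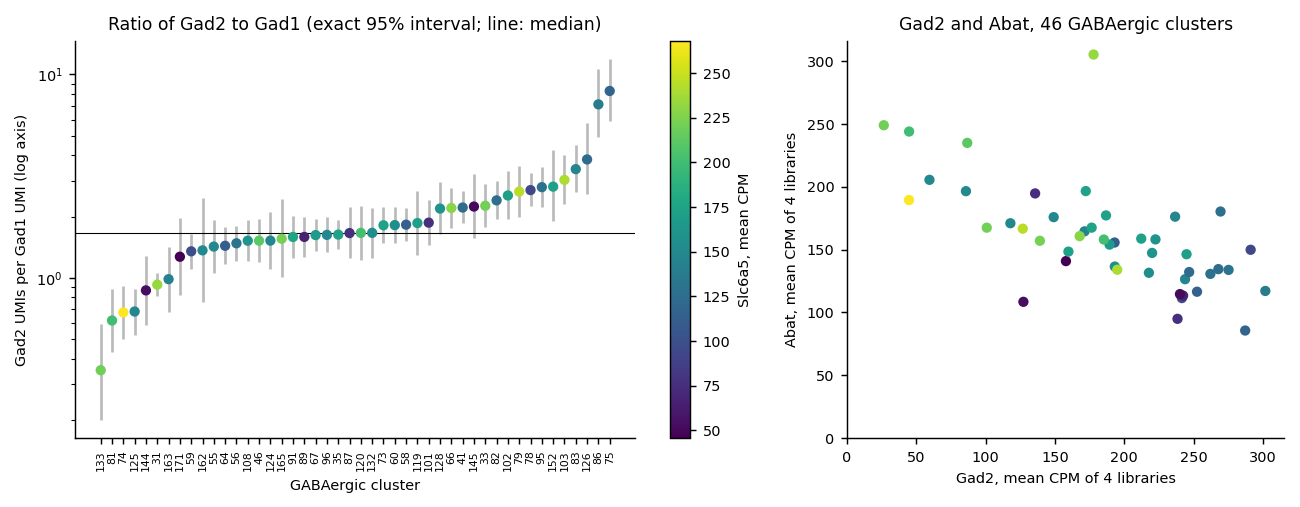
Left, Gad2 UMIs per Gad1 UMI (log axis) in 46 GABAergic clusters with exact 95% intervals, coloured by the mean Slc6a5 level, with a line at the median of 1.66; right, mean Gad2 against mean Abat level (CPM) with the same colours. The ratio runs from 0.351 in cluster 133 to 8.29 in cluster 75, and clusters high in Gad2 are mostly low in Abat.

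Across the 46 GABAergic clusters the members did not rise and fall together. Gad1 and Gad2, which had a Spearman rho of 0.83 over all 134 neuronal clusters, had a rho of 0.26 within the class. Gad2 went against Abat (rho = -0.67) and Slc6a5 (-0.51), and with Slc6a11 (0.58). Abat went with Slc6a5 (0.58) and against Slc6a11 (-0.53). In only 5 of the 46 clusters did all libraries lie above the highest oligodendrocyte library in Slc6a11, so its correlations rest mostly on levels near that of oligodendrocytes. These correlations describe clusters that come from the same 4 libraries, were built from expression and differ in depth, and no p is given. As an example, cluster 133, lowest in Gad2, had 249 ± 21.4 CPM of Abat and 220 ± 35.9 CPM of Slc6a5. Cluster 75, lowest in Abat at 85.6 ± 4.32 CPM, had 287 ± 54.0 CPM of Gad2 and 117 ± 13.8 CPM of Slc6a5. Cluster 86, highest in Gad2 within the class, had 138 ± 38.3 CPM of Slc6a5. These clusters are among those correlated and add no support.

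Gad2 also appeared in glutamatergic clusters. Of 69, 12 had a mean Gad2 level above that of the lowest GABAergic cluster (26.5 CPM in cluster 133, from 20 UMIs), while on the mean of 4 libraries none reached the lowest GABAergic level of Gad1 (35.0 CPM, with glutamatergic cluster 135 next at 33.9 CPM) or Slc32a1 (36.4 CPM). The count of 12 rests on that cluster, and it ran from 9 to 19 when a library was left out, with 19 without control replicate 1. In 11 glutamatergic clusters all 4 libraries were above the highest oligodendrocyte library in Gad2, as they were in 45 of 46 GABAergic clusters. Cluster 97 (Gfral/Sctr), which is marked by Gfral, the receptor of the nausea signal GDF15 in the area postrema, had 44.3 and 124 CPM in controls and 30.5 and 106 CPM in AgRP-Gq;POMC-Gi samples. Its groups overlapped, and its 60 UMIs came from 19 of 101 nuclei, of which 16 also had a Slc17a6 UMI, and 1 nucleus held 26.7% of the UMIs. Cluster 149 (Cartpt/Arhgap28) had 120 and 104 CPM against 38.1 and 58.4 CPM. The Gcg/Reln cluster, marked by the precursor of glucagon-like peptide 1, had 32.6 and 39.6 CPM against 48.4 and 60.3 CPM, in 29.2% of 89 nuclei. Cluster 53 (Gal/Dkk2) had 63.5 and 77.6 CPM against 30.8 and 52.5 CPM. Clusters 135 (Zfp804b/Etl4, 103 ± 134 CPM) and 150 (Nr5a2/Zfp804b, 67.9 ± 69.6 CPM) were highest in AgRP-Gq;POMC-Gi replicate 2, with 299 and 171 CPM. The other libraries had 67.5, 44.1 and 0 CPM in cluster 135 and 40.7, 41.8 and 18.1 CPM in cluster 150. The other 6 were clusters 173 (Mecom/Oprk1, 40.2 ± 45.7 CPM), 160 (Ebf2/Ism1, 39.2 ± 18.7 CPM), 51 (Bnc2/Ebf2, 38.6 ± 20.8 CPM), 40 (Ebf2/Ankfn1, 38.0 ± 16.4 CPM), 111 (Cartpt/Postn, 36.4 ± 24.7 CPM) and 70 (Tfap2b/Cntnap5b, 27.5 ± 14.2 CPM). Cluster 173 rests on 9 UMIs, with 5.14 to 106 CPM by library, and 1 nucleus held 37.0% of the UMIs in cluster 70.

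In these 12 clusters together, 247 of 1145 nuclei had a Gad2 UMI. Slc17a6 was found in 65.6% of them and in 63.9% of the nuclei without Gad2, Gad1 in 11.3% and 5.12%, Slc32a1 in 7.29% and 4.68%, and Slc6a5 in 10.9% and 2.56%. Nuclei with Gad2 were deeper (median 9409 against 7893 UMIs). The class rule keeps Slc32a1 low in these clusters, and even in GABAergic nuclei with Gad2 it was found in only 40.1%. Pooled over the clusters, nuclei with Gad2 carried the excitatory gene about as often as their neighbours, but single clusters went either way. Slc17a6 was found in 87.5% of the 16 nuclei with Gad2 in cluster 149 (exact 95% interval 61.7 to 98.4%) against 51.3% of those without. It was found in 29.4% (10.3 to 56.0%) against 57.8% in cluster 135, with 17 nuclei with Gad2, in 42.9% (17.7 to 71.1%) against 70% in cluster 150, with 14, and in 42.9% (9.90 to 81.6%) against 63.6% in cluster 173, with 7. Slc6a5 was found in 58.8% against 11.1% in cluster 135 and in 21.4% against 0% in cluster 150.

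The number of mixed clusters depends on the class limit, with 33 at 10-fold (3628 nuclei) and 3 at 2-fold (387 nuclei). The 7 mixed clusters at 4-fold were 39 (Col19a1/Sv2b), 49 (Ccbe1/Tspan18), 57 (Adarb2/Ebf2), 84 (Zfp804b/Lemd1), 92, 127 (Dach1/Unc5d) and 134 (Dach1/Sema3a). Apart from cluster 39 they resembled the GABAergic class, with Gad1 between 46.1 and 167 CPM and Gad2 between 116 and 312 CPM; cluster 39 had 19.8 ± 1.43 CPM of Gad1 and 53.3 ± 10.5 CPM of Gad2. Slc32a1 lay between 37.4 and 45.5 CPM in all 7. Both Slc32a1 and Slc17a6 were found in 17 of 830 mixed nuclei (2.05%), fewer than the 4.15% that independent detection would give. The 4 clusters that the study singled out had Gad2 at 269 ± 23.0 CPM (cluster 82, Tal1/Nell1, GABAergic, with 106 ± 19.7 CPM of Gad1), 45.2 ± 12.0 CPM (Gcg/Reln), 7.90 ± 6.41 CPM (cluster 63, Ebf2/Th) and 6.34 ± 1.71 CPM (cluster 76).

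In single nuclei, detection of the decarboxylase genes was limited by depth. With GABAergic nuclei thinned to 2000 UMIs, 5.35% had both genes, 12.2% Gad1 without Gad2 and 23.8% Gad2 without Gad1; detection of each gene independently would give 5.12% with both. At full depth 39.6% had both, against 36.2% if independent, and 18.1% had neither. Of 1875 GABAergic nuclei with a Slc32a1 UMI, 85.4% also had a UMI of Gad1 or Gad2 at full depth. That share was 68.4% when thinned to 5000 UMIs and 44.1% at 2000 UMIs.

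The genes most like each member across the 134 neuronal clusters, by Pearson's r of log2(mean CPM + 1) over 13053 genes with at least 500 UMIs in neurons, were largely the members and their neighbours on the chromosome. For Gad1 they were Gm14204 (r = 0.87), Gad2 (0.86), Erich2 (0.84), Gad1os (0.84) and Slc6a5 (0.84), and Gad2 had the same set with Gad1 in place of itself (0.86 to 0.79). For Slc32a1 they were Gm14204 (0.89), Slc6a5 (0.84), Erich2 (0.83), Gad1os (0.83) and Gad1 (0.80). Gm14204 lies 43 bases from Slc32a1 on the opposite strand, Gad1os overlaps Gad1 on the opposite strand, and Erich2 lies 12187 bases from Gad1 on the same strand. For Abat the values were lower: Pax8 (0.54), Gm13415 (0.52), which overlaps Pax8, Sez6 (0.51), Gad1 (0.50) and Pax2 (0.46). For Slc6a11 over the 14 cell types they were Fgfr3 (0.95), Dao (0.95), Slc39a12 (0.93), Atp13a4 (0.92) and Ppp1r3c (0.92), and over all 184 clusters Atp1b2 (0.80), Slc1a2 (0.79), Acsbg1 (0.78), Eva1a (0.76) and Acsl3 (0.76).

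The sequencing addressed which cells of this hindbrain area respond when AgRP neurons are driven and POMC neurons silenced together. None of the GABA genes passed the test for a difference between AgRP-Gq;POMC-Gi and control libraries (edgeR's quasi-likelihood test on UMIs summed per library, 2 against 2, Benjamini-Hochberg adjusted over all genes of a fit, threshold 0.05): 0 of 37 pairs of a member with a cell type or neuron class were called, and 2 had an unadjusted p under 0.05. Among all genes tested, 0% were called in neurons, 0% in GABAergic, 0% in glutamatergic and 0.0246% in mixed neurons, 0.626% in astrocytes, 0.0444% in OPC and 0.0857% in the other cell types together. At an unadjusted p under 0.05 the fit had 667 of 12115 genes in neurons, 602 in GABAergic and 677 in glutamatergic neurons, and DESeq2 called 10, 3 and 9 genes there. Without AgRP-Gq;POMC-Gi replicate 2, the library low in Xist, edgeR called 2017 genes in neurons, 903 in GABAergic and 553 in glutamatergic neurons. That fit has 1 library in the group and takes its spread from the 2 controls, so it says nothing firm about the members. DESeq2 also called 0 of the 34 member pairs for which it gave an adjusted p.

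Among neurons, differences were small. With the levels per library given above, the log2 fold of AgRP-Gq;POMC-Gi over control was -0.02 ± 0.07 (SE) for Gad1, 0.09 ± 0.07 for Gad2, -0.01 ± 0.08 for Slc32a1 and -0.05 ± 0.07 for Abat in all neurons. Slc6a11 in neurons was 13.2 and 12.5 CPM in controls and 10.3 and 11.3 CPM in AgRP-Gq;POMC-Gi samples, a log2 fold of -0.19 ± 0.11 (adjusted p = 0.81), at a level that overlapped with background. In GABAergic neurons Gad2 was 175 and 186 CPM against 190 and 182 CPM, a log2 fold of 0.10 ± 0.09 (adjusted p = 0.92). The smallest adjusted p of a member in a neuron class was 0.70, for Gad2 in mixed neurons, at 147 and 144 CPM in controls and 153 and 186 CPM in AgRP-Gq;POMC-Gi samples (log2 fold 0.27 ± 0.13). The groups did not overlap there, as in 36.9% of all genes tested in mixed neurons. The share of neurons in GABAergic clusters was 40.2% and 38.7% in controls and 38.5% and 40.1% in AgRP-Gq;POMC-Gi samples, a difference of -0.194 percentage points (two-sided exact permutation test over libraries, p = 0.667, where 2 against 2 allows no p below 0.33).

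Outside neurons, Slc6a11 in astrocytes was higher in 1 AgRP-Gq;POMC-Gi library and level in the other, as given above, with a log2 fold of 0.15 ± 0.16 (adjusted p = 0.82), and Abat in astrocytes had -0.05 ± 0.11. Gad1 in OPC had 0.08 ± 0.24 (adjusted p = 0.99). The pairs with an unadjusted p under 0.05 were Abat in oligodendrocytes and Gad1 in tanycyte-like cells. Abat in oligodendrocytes was 39.4 and 47.2 CPM in controls and 30.7 and 35.0 CPM in AgRP-Gq;POMC-Gi samples, which did not overlap, as in 37.4% of all genes tested there, a log2 fold of -0.34 ± 0.13 (edgeR, unadjusted p = 0.032, adjusted p = 0.46). Gad1 in tanycyte-like cells was 10.2 and 112 CPM in controls and 9.71 and 12.3 CPM in AgRP-Gq;POMC-Gi samples (log2 fold -2.13 ± 0.89, adjusted p = 0.76). Control replicate 2 decided that value, which was 0.26 without it, and without control replicate 1, which leaves it as the lone control, Gad1 and Gad2 passed the test there (adjusted p = 0.042 and 0.034). Its tanycyte-like nuclei were also highest in the 4 neuronal markers summed, at 1911 CPM against 953, 612 and 616 CPM in control replicate 1 and AgRP-Gq;POMC-Gi replicates 1 and 2, and the part of this in the result was not tested.

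**Figure D5:**
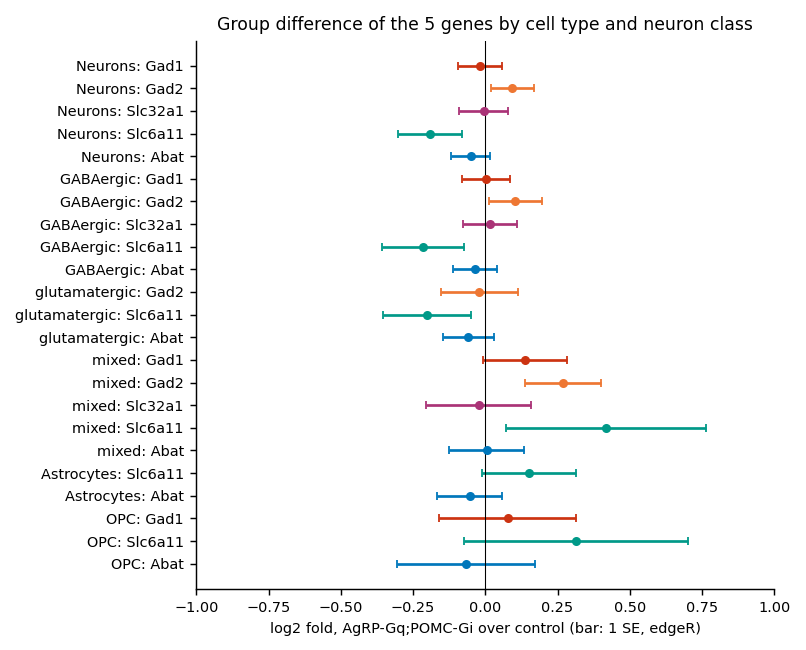
Log2 fold of AgRP-Gq;POMC-Gi over control for the members in neurons, the neuron classes, astrocytes and OPC (edgeR, bars 1 SE, 2 libraries per group). No value passed the test, and those in all neurons and in GABAergic neurons lie between -0.22 and 0.10.

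At the level of clusters, 472 pairs of a member with a neuronal cluster and 29 pairs with an astrocyte cluster were tested, and 0 were called, against 0.0387% of all gene and neuronal cluster pairs and 0.134% of astrocyte cluster pairs. At an unadjusted p under 0.05 there were 21 of the 472 pairs (4.45%), against 4.51% of all pairs, and DESeq2 called 0 of 494. The pairs with the smallest p were all of Slc6a11. In cluster 80 (Pdyn/Cpa6, glutamatergic) it was 85.2 and 7.06 CPM in controls and 7.78 and 5.66 CPM in AgRP-Gq;POMC-Gi samples (log2 fold -2.71 ± 0.79, adjusted p = 0.11); control replicate 1 stood apart, without it the log2 fold was 0.01, and without control replicate 2 the pair passed the test (-3.51, edgeR adjusted p = 0.0011). The 4 astrocyte markers summed moved with it, at 330 and 113 CPM in controls and 81.7 and 59.4 CPM in AgRP-Gq;POMC-Gi samples, with 4 of 4 higher in controls and none at 0 in all libraries. In cluster 95 (Tfap2b/Esr1, GABAergic) it was 13.2 and 0 CPM in controls and 30.9 and 43.1 CPM in AgRP-Gq;POMC-Gi samples (adjusted p = 0.99), where the astrocyte markers were 52.8 and 49.4 CPM against 24.7 and 39.5 CPM, with 1 of 4 higher in controls. In cluster 184 it was 0 in both control libraries and 191 and 19.1 CPM in AgRP-Gq;POMC-Gi samples (adjusted p = 0.98), from 8 UMIs in 24 nuclei, and the astrocyte markers were 13.1 and 26.5 CPM against 27.2 and 57.4 CPM, also with 1 of 4 higher in controls. Their part in these values was not tested. In the 4 clusters the study singled out no member passed the test, the smallest edgeR adjusted p being 0.96. In cluster 82, Gad2 was 283 and 246 CPM in controls and 295 and 254 CPM in AgRP-Gq;POMC-Gi samples, and the groups overlapped, as they did for the other members there. In the Gcg/Reln cluster, where the groups did not overlap in 35.2% of all genes tested, they did not overlap for Gad1, at 14.5 and 11.9 CPM against 4.84 and 2.87 CPM (log2 fold -1.66 ± 1.09), for Gad2, as given above (0.71 ± 0.45), for Abat, at 148 and 99.1 CPM against 87.1 and 63.2 CPM (-0.66 ± 0.35), or for Slc6a11, at 14.5 and 15.9 CPM against 9.68 and 8.62 CPM (-0.63 ± 0.86). Nor did they overlap for Slc6a11 in cluster 76 (34.5% of all genes there), at 22.3 and 45.9 CPM against 21.7 and 10.4 CPM (-1.11 ± 0.65), or for Abat in cluster 63 (32.8% of all genes there), at 211 and 217 CPM against 203 and 148 CPM (-0.40 ± 0.28).

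Among the 50 genes of related lists, 1 of 201 pairs with a cell type or class passed the test. Over all genes, 0.626% were called in astrocytes and 0% to 0.0857% in the other types and classes, grouped as above. The pair was Slc38a1 in astrocytes, 1 of 9 genes of its list tested there. This transporter of glutamine, from which glutamate and then GABA are made, rose from 66.9 and 69.7 CPM in controls to 108 and 138 CPM in AgRP-Gq;POMC-Gi samples (log2 fold 0.89 ± 0.12, edgeR adjusted p = 0.010), and it stayed past the threshold under every alternative run. The summed neuronal markers in astrocytes were 286, 431, 247 and 383 CPM in control replicates 1 and 2 and AgRP-Gq;POMC-Gi replicates 1 and 2, and the astrocyte markers were 4545, 4492, 4900 and 4664 CPM in the same order. The part of either in the result was not tested. In neuronal clusters 3 of 2430 list pairs were called, against 0.0387% of all pairs there, and in astrocyte clusters 0 of 157, against 0.134%. Slc1a2, which was highest in astrocytes, and Glul, which was as high in oligodendrocytes as in astrocytes, fell in cluster 80, Glul from 153 and 49.4 CPM in controls to 7.78 and 14.2 CPM (log2 fold -3.04 ± 0.57, edgeR adjusted p = 0.00054) and Slc1a2 from 250 and 70.6 CPM to 19.4 and 19.8 CPM (log2 fold -2.95 ± 0.46, edgeR adjusted p = 8.2e-06). Slc1a2 also fell in cluster 111, from 124 and 217 CPM to 54.1 and 29.2 CPM (log2 fold -1.93 ± 0.44, edgeR adjusted p = 0.0078). The 4 astrocyte markers summed moved with these, as given above for cluster 80, and were 139 and 123 CPM against 36.1 and 29.2 CPM in cluster 111, with 3 of 4 higher in controls. The 4 oligodendrocyte markers moved as well in cluster 80, at 1057 and 219 CPM in controls and 97.2 and 122 CPM in AgRP-Gq;POMC-Gi samples, with 4 of 4 higher in controls. Their part in the results was not tested. None of these 3 cluster results passed under DESeq2. Without control replicate 1 the log2 folds in cluster 80 were -1.95 for Glul and -1.70 for Slc1a2 and did not pass, and in cluster 111 Slc1a2 did not pass without control replicate 2 (-1.29) or without either AgRP-Gq;POMC-Gi library (-2.49 and -1.56).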

How the data were processed

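The authors mapped reads with Cell Ranger 7.0.0 to GRCm38, deposited UMI counts per gene and nucleus, removed nuclei of low quality and marked doublets, and supplied cell types (module scores) and Louvain clusters. The deposited counts were taken as they are for nuclei marked as passing, and were not filtered further for doublets. Counts were summed per library and cell type, class or cluster, giving CPM; 4 libraries, 2 per group, were compared. The study fitted a mixed model over nuclei; here the summed counts were tested with edgeR 4.0.16 (quasi-likelihood test, TMM, R 4.3.3), and DESeq2 1.42.0 was an alternative. A fit needed 20 nuclei per library (5 for clusters) and a gene needed a UMI in 5% of nuclei. SE is the log2 fold divided by the root of F. The fits were tested on simulated data, where 2-fold changes were called less often in OPC than in all neurons, and even 4-fold changes less often in single clusters. The table of all libraries joined was not used, since it holds the same nuclei.

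Genes and clusters named are the members, the 3 highest and 3 lowest clusters of each, the exceptions to the classes, the clusters the study singled out, the pairs with the smallest p, and called genes of 5 lists holding 50 genes. The members, lists and classes were chosen with earlier results of these data known. Alternatives were no TMM factors, other gene filters, other class folds, other depths, a block for the replicate number and leaving out each library. Intervals cover counting error only. Some genes of the lists, and the labels of some clusters, are not reported here.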

Additional observations from a re-analysis of the deposited data

Results flagged for a closer look

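In 65 groups of 4 libraries, the highest or lowest library was set against the others by Dixon's test, which chance passes in about 1 of 20 groups, and 6 passed. Gad1 in tanycyte-like cells was 112 CPM in control replicate 2 and at most 12.3 CPM in the other libraries. Gad1 in microglia (Tmem119.Immune) was 22.8 CPM in the same library and at most 8.76 CPM elsewhere. Slc6a11 in astrocytes was 802 CPM in AgRP-Gq;POMC-Gi replicate 1 and at most 714 CPM elsewhere. Control replicate 1 was highest in the remaining ones: Slc6a11 in ependymal cells (113 CPM, others at most 65.9 CPM), Abat in fibroblasts (139 CPM, others at most 68.4 CPM) and Slc32a1 in glutamatergic neurons (5.73 CPM, others at most 4.69 CPM). These libraries belong to both groups, and the cause was not tested.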

How the results depend on the processing

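No pair of a member with a cell type or class was called without TMM factors, with DESeq2, with other gene filters or with a replicate block. Same-numbered libraries deviated together with correlations of -0.06 to 0.22, and the block changed 1 sign, called 0 of 37 pairs and called 168 genes in neurons where the fit without it called 0. Leaving out a library, which leaves a lone library in its group that is assumed to vary like the other group, calls ran from 0 to 2 pairs for types and classes and from 0 to 2 for clusters. Without control replicate 2 they were Gad1 in cluster 46 (adjusted p = 0.044) and Slc6a11 in cluster 80, and without AgRP-Gq;POMC-Gi replicate 1 there was 1, Gad2 in cluster 135 (edgeR adjusted p = 0.0062). The difference in the GABAergic share became 0.411 points with a 10-fold class limit and ran from -0.973 to 0.586 without a library.

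Of 37 pairs with a cell type or class, 20 changed the sign of their log2 fold when some library was left out, among them, with larger folds, Gad1 and Gad2 in tanycyte-like cells. Without TMM factors they were -0.0530 for Gad1 and -0.0406 for Slc32a1 in GABAergic neurons, and without a gene filter 0.000891 for Slc32a1 in neurons. Without a library they ran from -0.0613 to 0.0256 (Gad1, neurons), -0.0236 to 0.0134 (Slc32a1, neurons), -0.0730 to 0.0814 (Gad1, GABAergic), -0.0715 to 0.106 (Slc32a1, GABAergic), -0.120 to 0.0703 (Gad2, glutamatergic), -0.139 to 0.0190 (Abat, glutamatergic), -0.0303 to 0.320 (Slc6a11, astrocytes), -0.0660 to 0.282 (Gad1, OPC), -3.08 to 0.259 (Gad1, tanycyte-like), -2.64 to 1.41 (Gad2, tanycyte-like), -0.0791 to 0.164 (Gad2, cluster 82) and -3.51 to 0.00990 (Slc6a11, cluster 80).

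Thinned to 800 UMIs, the shares of nuclei were 5.23% for Gad1 in OPC, 4.08% for Gad1, 7.50% for Gad2, 2.50% for Slc32a1 and 10.3% for Abat in neurons, and 41.5% for Slc6a11 and 15.4% for Abat in astrocytes. As means over nuclei, Gad1 was 56.0 CPM, Gad2 104 CPM and Slc32a1 29.9 CPM in neurons. With a 10-fold limit 25 clusters were GABAergic, with a median Gad2 level of 178 CPM, and 25 of them in Gad1 and 22 in Gad2 were above every glutamatergic cluster. Without a library, 9 to 19 glutamatergic clusters were above the lowest GABAergic Gad2 level, 19 of them without control replicate 1. At 5000 UMIs 20.8% of GABAergic nuclei had both decarboxylase genes, 15.1% Gad1 alone and 32.6% Gad2 alone, and at full depth 39.6% had both and 29.7% Gad2 alone. Clusters with few nuclei, and genes with few UMIs, limit what could be seen.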
